A study of Mus musculus with 19 samples.

Results

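PACAP (Adcyap1), its receptors and 5 other receptors that couple to Gsα were followed across the knockout and wild-type cerebellum. The genes were chosen by name and make up 9 of the 22193 genes in the deposited tables: the ligand gene Adcyap1, the PACAP receptor genes Adcyap1r1, Vipr1 and Vipr2, the hormone and mediator receptor genes Adrb1, Adora2a and Ptger4, and the ligand-independent receptor genes Gpr161 and Gpr3. All 9 are listed in both tables, and none is at 0 in any of the 19 libraries. Libraries were made from bulk cerebellar RNA of C57BL/6 mice at postnatal day 60. Olig1-Gnas denotes 8 libraries from mice in which Olig1Cre deletes Gsa conditionally. hGFAP-Gnas denotes 8 libraries from mice in which hGFAPCre does so. Ctrl denotes 3 libraries from wild type mice, for which the labels name no Cre, so presence of Cre and loss of Gsa cannot be told apart here. Deletion is confined by each Cre driver to part of the cells, while RNA was taken from whole cerebellum, and the deposited hGFAP-Gnas values carry the word tumor in their name. The labels list the libraries as separate samples but do not state that each is a separate animal, so p-values measure the spread between these samples.

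Pituitary adenylate cyclase-activating polypeptide, PACAP, is a secreted neuropeptide that binds the class B receptors PAC1 (Adcyap1r1), VPAC1 (Vipr1) and VPAC2 (Vipr2). These receptors, like all others followed here, activate Gsα, the product of Gnas, which turns on adenylyl cyclase and raises cAMP. The cAMP-dependent kinase PKA then phosphorylates GLI transcription factors and so favors their repressor forms. In cultured cerebellar granule neuron progenitors, PACAP is known to oppose the proliferation driven by Sonic hedgehog, and the ciliary receptor Gpr161 is known to restrain hedgehog signaling through cAMP. By its title, the study concerns Gsα in medulloblastoma driven by Sonic hedgehog. The comparisons therefore ask what the ligand and receptors upstream of Gsα do in cerebellum where part of the cells are meant to have lost it.

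Sequences upstream of the gene starts were read from RefSeq (GRCm38.p6), whose promoter table matched 8 of the 9 genes with 10 windows of 250 bases before to 50 after a start. Each was searched on both strands for the cAMP response element TGACGTCA, for its core TGACG, which also lies within the full element, and for the GLI site GACCACCCA. None of the 10 windows held the full element or the GLI site, which occur in 1.79% and 0.253% of 32851 RefSeq windows of the same length. The core TGACG, present in 20.8% of all windows, was found upstream of Adcyap1, Vipr1, Adrb1 and Gpr3. The 250 bases upstream are shown for Adcyap1, the ligand, and for Gpr3, the receptor called in both knockouts whose window held the most copies. They are printed in the gene's direction, with TGACG or its reverse complement CGTCA in capitals. The Adcyap1 stretch lies at chr17:93198767-93199016 on the plus strand and the Gpr3 stretch at chr4:133212537-133212786 on the minus strand.
Adcyap1: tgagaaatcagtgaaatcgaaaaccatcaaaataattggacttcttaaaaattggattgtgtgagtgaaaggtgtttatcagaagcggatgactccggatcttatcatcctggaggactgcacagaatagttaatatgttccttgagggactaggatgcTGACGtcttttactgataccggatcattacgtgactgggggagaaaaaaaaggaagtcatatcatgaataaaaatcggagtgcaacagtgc
Gpr3: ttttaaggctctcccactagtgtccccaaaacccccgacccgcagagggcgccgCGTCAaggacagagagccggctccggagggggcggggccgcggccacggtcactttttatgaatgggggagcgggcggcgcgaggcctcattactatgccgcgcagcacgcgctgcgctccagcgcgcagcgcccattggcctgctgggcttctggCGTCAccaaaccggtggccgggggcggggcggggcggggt
In Adcyap1 the core starts 91 bases before the start, and another annotated start places it 242 bases upstream. In Gpr3 the copies start 196 and 40 bases before the start, both on the opposite strand. These matches are descriptions of letters and say nothing about binding.

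The values are FPKM, fragments per kilobase of transcript scaled to the mapped fragments of the library, so they are per length and can be set side by side between genes. They were taken to log2(FPKM + 1), and a gene was tested with limma where 3 or more libraries of the comparison reached 1 FPKM. Genes with an adjusted p under 0.05 were called. FPKM summed to 603067 to 689165 per library in Olig1-Gnas, 505739 to 659634 in hGFAP-Gnas and 508329 to 525832 in Ctrl. Read totals are not given in the sources used here. Steps among the lowest values put Olig1-Gnas 5 to 8, hGFAP-Gnas 1 to 4 and Ctrl 1 and 2 at 0.829 to 1.06 of the depth of Ctrl 2 (deeper libraries), and the other 9 libraries at 0.270 to 0.438 (shallower libraries). Gnas itself does not check the labels: it is listed at 0 to 121 FPKM in Olig1-Gnas, at 0 to 40.9 FPKM in hGFAP-Gnas and at 0 to 798 FPKM in Ctrl, and an exact 0 in these tables can be a failed estimate. The libraries differ in cell makeup by marker genes. Summed FPKM of 7 mature granule neuron genes was 53.9 to 411 in Olig1-Gnas, 96.4 to 1205 in hGFAP-Gnas and 1461 to 1850 in Ctrl, and that of 9 microglia and macrophage genes 359 to 1246 in Olig1-Gnas, 92.2 to 784 in hGFAP-Gnas and 52.1 to 73.9 in Ctrl. Library hGFAP-Gnas 1 stood apart from the other hGFAP-Gnas libraries and nearest to Ctrl, with 185 FPKM over 6 granule progenitor genes, against 197 to 279 FPKM in Ctrl and at least 530 FPKM in every other knockout library. Of the Ctrl sum, Zic1 alone made up 191 to 272 FPKM. In bulk tissue, fewer cells of a type and less RNA per cell cannot be told apart.

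Across the 9 genes, Gpr161, Gpr3 and Adora2a were higher and Vipr2 was lower in Olig1-Gnas than in Ctrl, and Gpr3, Adora2a and Ptger4 were higher in hGFAP-Gnas than in Ctrl. The ligand gene Adcyap1 and the main receptor gene Adcyap1r1 were called in neither. For Olig1-Gnas, 8 of the 9 genes passed the filter, of which 3 were called higher and 1 lower. Over all 14183 genes tested, 59.8% were called, 36.2% higher and 23.6% lower. For hGFAP-Gnas all 9 passed, with 3 called higher and 0 lower, against 38.9% of 14305 genes called, 26.1% higher and 12.8% lower. No member with a negative fold there had an unadjusted limma p under 0.05. Between Olig1-Gnas and hGFAP-Gnas, 0 of 9 genes were called, against 0.41% of 14386 genes, 0.146% higher and 0.264% lower. Of the 9, only Adrb1 had an unadjusted limma p under 0.05 (0.0322), and the exact permutation test gave the same gene p = 0.0250. The knockouts differ in Y-linked signal (Ddx3y at 1 FPKM or more), found in Olig1-Gnas 5 and 8 and in every hGFAP-Gnas library but hGFAP-Gnas 3. With a term for this signal, 0 members had an unadjusted limma p under 0.05, and 3 genes were called, against 59 without it. The median log2 fold of the members tested was 0.38 for Olig1-Gnas and 0.55 for hGFAP-Gnas against Ctrl, beside 0.22 and 0.19 for all genes tested. The shares of members called are thus of the same order as the shares of all genes, and both knockout comparisons use the same 3 Ctrl libraries. Upper quartile scaling and quantile normalization bring the median log2 fold of all genes to 0.06 and 0.06 in Olig1-Gnas and to 0.07 and -0.01 in hGFAP-Gnas. Under quantile normalization 4231 genes were called higher and 4125 lower in Olig1-Gnas, against 5134 and 3351 without it, and 2614 higher and 2718 lower in hGFAP-Gnas, against 3738 and 1832. Adora2a, and Ptger4 in hGFAP-Gnas, passed the filter only through the knockout libraries, since every Ctrl value lies under 1 FPKM. Their part in these counts and in the member medians was set by the filter, and neither supports anything for them. In hGFAP-Gnas the member median of 0.55 is the fold of Adora2a itself, so it shows no shift of the members beyond all genes.

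**Figure D1:**
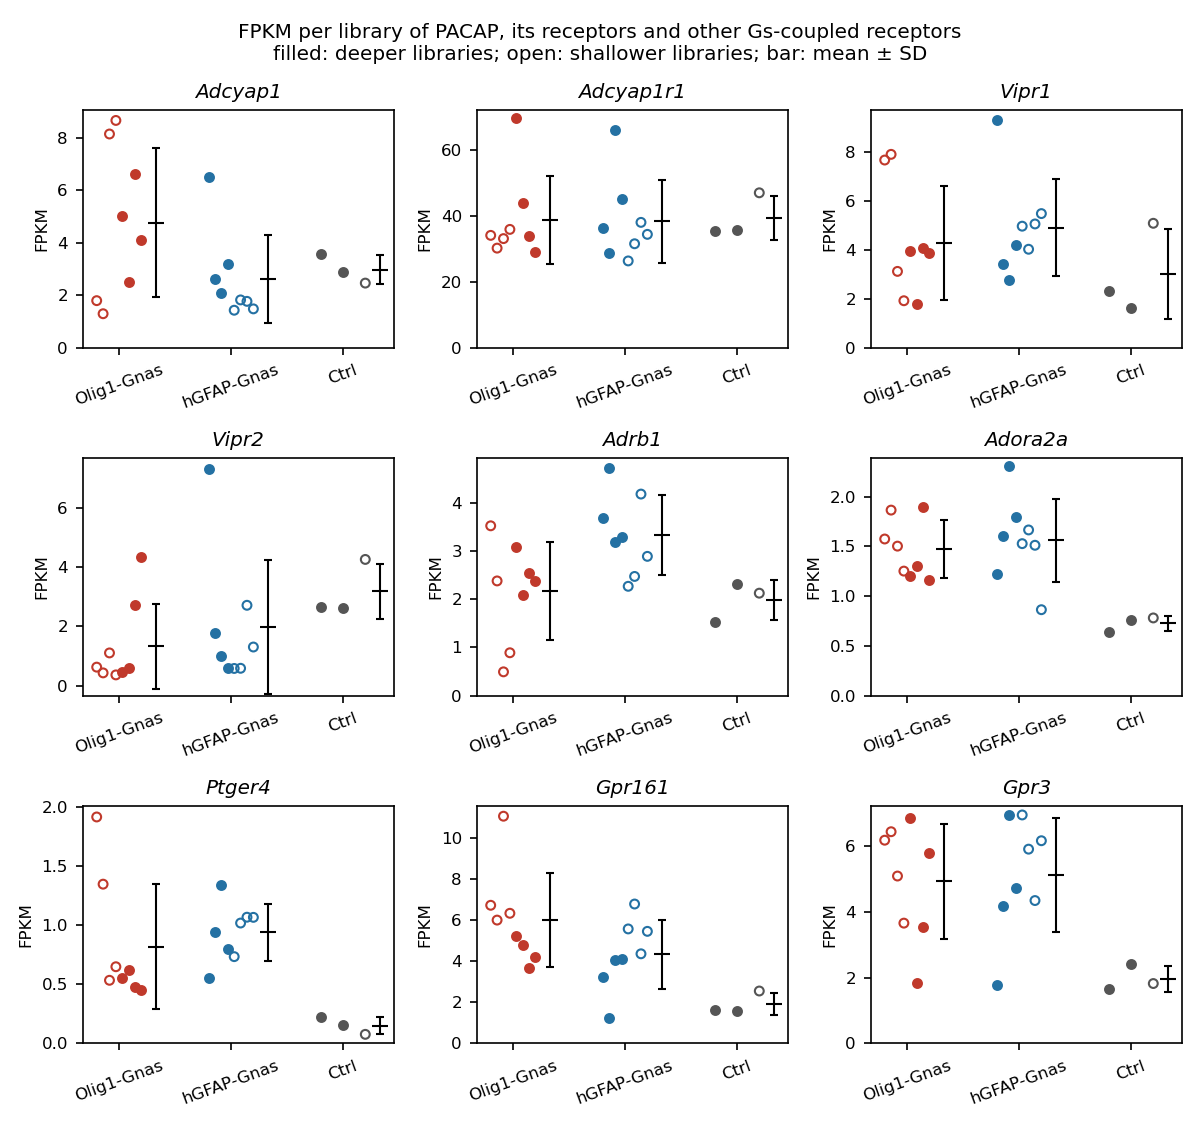
FPKM of each gene in every library (y axis, linear), with 8 Olig1-Gnas, 8 hGFAP-Gnas and 3 Ctrl libraries from left to right. Filled points are deeper and open points shallower libraries, and bars are the mean ± SD. Adora2a and Ptger4 lie above every Ctrl value in all 16 knockout libraries.

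Adcyap1 (chr17:93598761-93604829, mm9 as listed), the PACAP precursor gene, spanned a wide range in the knockouts. It had a lowest, median and highest value of 1.30, 4.56 and 8.67 FPKM in Olig1-Gnas and 1.43, 1.96 and 6.49 FPKM in hGFAP-Gnas, against 3.56, 2.89 and 2.46 FPKM in Ctrl 1, 2 and 3. In Olig1-Gnas, 5 of 8 libraries lay above all Ctrl values and 2 below them. In hGFAP-Gnas, 1 lay above and 5 below. Neither difference exceeded the spread: the log2 fold was 0.37 ± 0.43 (SE, adjusted p = 0.478) for Olig1-Gnas and -0.23 ± 0.31 (adjusted p = 0.571) for hGFAP-Gnas. Set against each other, Olig1-Gnas libraries averaged 4.77 ± 2.85 FPKM and hGFAP-Gnas libraries 2.61 ± 1.68 FPKM (SD, n = 8 each), a log2 fold of 0.60 ± 0.32 that missed the threshold (adjusted p = 0.251; exact permutation p = 0.0968). The coefficient of variation between libraries was 0.597 in Olig1-Gnas and 0.642 in hGFAP-Gnas, against 0.186 in Ctrl.

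Adcyap1r1 (chr6:55401973-55451449), which encodes the PACAP-preferring receptor PAC1, was the most abundant of the 9 genes in every group. Its lowest, median and highest levels were 29.0, 34.0 and 69.9 FPKM in Olig1-Gnas and 26.4, 35.4 and 66.0 FPKM in hGFAP-Gnas, against 35.4, 35.7 and 47.1 FPKM in Ctrl 1, 2 and 3. All groups overlap, and 1 library in each knockout, Olig1-Gnas 5 and hGFAP-Gnas 3, lay well above the next value, 44.1 and 45.3 FPKM. The means were 38.8 ± 13.4 FPKM in Olig1-Gnas, 38.4 ± 12.6 FPKM in hGFAP-Gnas and 39.4 ± 6.65 FPKM in Ctrl (SD, n = 8, 8 and 3). The log2 fold was -0.06 ± 0.23 for Olig1-Gnas against Ctrl (adjusted p = 0.827), -0.08 ± 0.24 for hGFAP-Gnas against Ctrl (adjusted p = 0.808) and 0.02 ± 0.19 between the knockouts (adjusted p = 0.970). With these errors, a modest change in either direction could not be told from none.

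Vipr1 (chr9:121551833-121582072) encodes VPAC1, which binds PACAP and vasoactive intestinal peptide alike. Its lowest, median and highest levels were 1.80, 3.92 and 7.90 FPKM in Olig1-Gnas and 2.76, 4.58 and 9.29 FPKM in hGFAP-Gnas, against 2.31, 1.61 and 5.08 FPKM in Ctrl 1, 2 and 3. Ctrl 3, the shallower Ctrl library, was high, and most knockout libraries fell inside the Ctrl range. The log2 fold was 0.38 ± 0.39 (adjusted p = 0.423) in Olig1-Gnas and 0.59 ± 0.31 (adjusted p = 0.145) in hGFAP-Gnas.

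Vipr2 (chr12:117316195-117384734), which encodes VPAC2, was the only PACAP receptor gene called, and only in Olig1-Gnas. There its lowest, median and highest levels were 0.359, 0.603 and 4.33 FPKM, against 2.67, 2.64 and 4.26 FPKM in Ctrl 1, 2 and 3. In this group 6 of 8 libraries lay below every Ctrl value, while Olig1-Gnas 7 and 8 held 2.71 and 4.33 FPKM. The log2 fold was -1.02 ± 0.41 (adjusted p = 0.0495), at the threshold, and the exact permutation test did not pass (p = 0.0848). In hGFAP-Gnas its lowest, median and highest levels were 0.577, 1.14 and 7.30 FPKM, and the log2 fold was -0.72 ± 0.46 (adjusted p = 0.221), where again 6 of 8 libraries lay below every Ctrl value. The highest library was hGFAP-Gnas 1; without it the log2 fold was -0.97 ± 0.28 (adjusted p = 0.0128). The Olig1-Gnas call ended when any Ctrl library or any of Olig1-Gnas 1 to 6 was left out, with folds of -0.84 to -1.21 over all libraries left out in turn, and among the deeper libraries the fold was -0.49 (adjusted p = 0.517). The difference between knockouts was -0.30 ± 0.37 (adjusted p = 0.635).

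Within each knockout, the libraries with the most Vipr2 also had the most signal from markers of mature granule neurons, glutamatergic cells that make up most cerebellar neurons. Olig1-Gnas 7 and 8, the libraries of that group with the most Vipr2, had a summed marker level of 408 and 411 FPKM, against 53.9 to 144 FPKM in the other 6 Olig1-Gnas libraries. In hGFAP-Gnas, libraries 1, 7, 2 and 8 had the most Vipr2, at 7.30, 2.71, 1.78 and 1.30 FPKM, and the most marker signal, at 1205, 877, 665 and 397 FPKM. Of the 7 markers, 6 were called lower in Olig1-Gnas and 5 in hGFAP-Gnas, beside 23.6% and 12.8% of all genes tested. None is at 0 in any group. The same libraries had the most Purkinje cell marker signal, 401 and 477 FPKM in Olig1-Gnas 7 and 8 and 1525, 1218, 1027 and 536 FPKM in hGFAP-Gnas 1, 7, 2 and 8. The granule sums did not order Vipr2 in full. Olig1-Gnas 8 held more Vipr2 than Olig1-Gnas 7 at a like granule sum, and Ctrl 3, with the most Vipr2 in Ctrl, had the lowest granule sum there, 1461 FPKM. Olig1-Gnas 8 and Ctrl 3 also held 2362 and 1244 FPKM over choroid plexus markers, against 11.4 FPKM in Olig1-Gnas 7 and at most 9.73 FPKM in the other Ctrl libraries. These markers did not order Vipr2 in hGFAP-Gnas. Libraries 8 and 6 there held 896 and 296 FPKM of them, with 1.30 and 0.583 FPKM of Vipr2. Library hGFAP-Gnas 1, with the most Vipr2, held 14.9 FPKM. The part of cell makeup in the Vipr2 difference was not tested.

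As a set, the composition of the PACAP receptor transcripts was dominated by Adcyap1r1 in every library. Its share of the summed FPKM of Adcyap1r1, Vipr1 and Vipr2 was 86.5 ± 7.31% in Olig1-Gnas and 84.4 ± 7.59% in hGFAP-Gnas, against 86.8 ± 3.05% in Ctrl (SD, n = 8, 8 and 3). By 2-sided exact permutation tests, adjusted over 3 comparisons, the difference was -0.337 percentage points for Olig1-Gnas against Ctrl (p = 0.952, adjusted 0.952), -2.45 for hGFAP-Gnas against Ctrl (p = 0.612, adjusted 0.918) and 2.11 between knockouts (p = 0.582, adjusted 0.918). Vipr1 took 10.2 ± 6.11% in Olig1-Gnas, 11.4 ± 4.23% in hGFAP-Gnas and 6.26 ± 2.53% in Ctrl. Vipr2 took 3.33 ± 3.90% in Olig1-Gnas, 4.26 ± 4.25% in hGFAP-Gnas and 6.92 ± 0.550% in Ctrl. Receptor transcript exceeded ligand transcript throughout, with an Adcyap1r1 to Adcyap1 ratio of 11.8 ± 7.65 in Olig1-Gnas, 17.9 ± 7.97 in hGFAP-Gnas and 13.8 ± 4.75 in Ctrl.

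**Figure D2:**
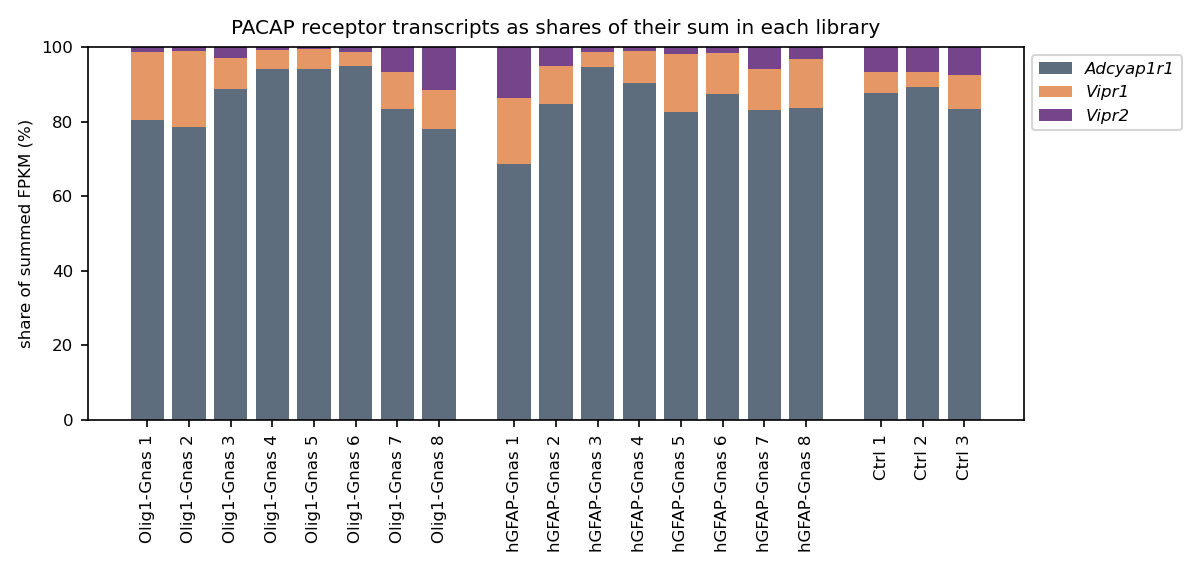
Shares of Adcyap1r1, Vipr1 and Vipr2 in their summed FPKM (y axis, percent), with a bar for each Olig1-Gnas, hGFAP-Gnas and Ctrl library. Adcyap1r1 takes the largest share in every library, and the lowest is 68.6% in hGFAP-Gnas 1.

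Adrb1 (chr19:56796861-56799352) encodes the β1-adrenergic receptor, which answers noradrenaline. Lowest, median and highest levels of the gene were 0.492, 2.37 and 3.52 FPKM in Olig1-Gnas and 2.27, 3.23 and 4.71 FPKM in hGFAP-Gnas, against 1.52, 2.32 and 2.12 FPKM in Ctrl 1, 2 and 3. In hGFAP-Gnas 7 of 8 libraries lay above every Ctrl value. The log2 fold was 0.52 ± 0.20 there, short of the threshold (adjusted p = 0.0541), and 0.01 ± 0.32 in Olig1-Gnas (adjusted p = 0.975), where the sign turned under quantile normalization (-0.09) and upper quartile scaling (-0.11). Without hGFAP-Gnas 1 or hGFAP-Gnas 5 the gene was called in hGFAP-Gnas (adjusted p = 0.0472 and 0.0459). Between the knockouts the log2 fold was -0.51 ± 0.22 (adjusted p = 0.187), and no library of Olig1-Gnas lay above the hGFAP-Gnas range.

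Adora2a (chr10:74779687-74797533) encodes the principal Gs-coupled adenosine receptor of the brain and was low in Ctrl. Its lowest, median and highest levels were 1.16, 1.40 and 1.90 FPKM in Olig1-Gnas and 0.864, 1.57 and 2.31 FPKM in hGFAP-Gnas, against 0.641, 0.765 and 0.781 FPKM in Ctrl 1, 2 and 3. All 16 knockout libraries lay above all 3 Ctrl libraries. Groups separated upward in this way for 32.2% of genes tested in Olig1-Gnas and 15.2% in hGFAP-Gnas, and downward for 21.5% and 8.56%, which no member did. Between Olig1-Gnas and hGFAP-Gnas, 0.306% of genes separated upward and 0.292% downward, and no member did. The means were 1.47 ± 0.291 FPKM in Olig1-Gnas and 1.56 ± 0.418 FPKM in hGFAP-Gnas, 2.02 and 2.14 times the Ctrl mean of 0.729 ± 0.0765 FPKM. The log2 fold, which the offset of 1 makes smaller than the ratio for so low a gene, was 0.51 ± 0.16 (adjusted p = 0.0137) in Olig1-Gnas and 0.55 ± 0.17 (adjusted p = 0.0283) in hGFAP-Gnas. Since no Ctrl library reached 1 FPKM, the gene was tested only because it is higher in the knockouts; with no filter the adjusted p was 0.00806 in Olig1-Gnas and 0.0292 in hGFAP-Gnas. The knockouts did not separate (log2 fold -0.04 ± 0.13, adjusted p = 0.862). Quantile normalization ended both calls, with a log2 fold of 0.36 (adjusted p = 0.118) in Olig1-Gnas and 0.21 (adjusted p = 0.369) in hGFAP-Gnas, as did leaving out Ctrl 1 or Ctrl 2 in either and Ctrl 3 or hGFAP-Gnas 4 in hGFAP-Gnas.

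Ptger4 (chr15:5183403-5193831), which encodes the prostaglandin E2 receptor EP4, had the lowest mean of the set in every group, although Vipr2 was higher than it in only 3 of 8 Olig1-Gnas libraries. Its lowest, median and highest levels were 0.451, 0.586 and 1.92 FPKM in Olig1-Gnas and 0.555, 0.980 and 1.34 FPKM in hGFAP-Gnas, against 0.223, 0.156 and 0.0774 FPKM in Ctrl 1, 2 and 3. All 16 knockout libraries lay above the Ctrl libraries, and the means were 5.39 and 6.20 times the Ctrl mean of 0.152 ± 0.0727 FPKM. The log2 fold in hGFAP-Gnas was 0.74 ± 0.15 (adjusted p = 0.00811, and 0.00813 with no filter). In Olig1-Gnas the gene did not pass the filter, and with no filter its log2 fold was 0.62 ± 0.21 (adjusted p = 0.0290; exact permutation p = 0.0424). The hGFAP-Gnas call ended under quantile normalization (adjusted p = 0.0702).

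In Olig1-Gnas, the libraries with the most Ptger4 had the most signal from several groups of non-neural markers. Olig1-Gnas 1 and 2 held 1.92 and 1.35 FPKM of Ptger4 and a summed level of 1246 and 1052 FPKM over 9 microglia and macrophage markers, against at most 0.649 FPKM and 533 FPKM in the other 6 Olig1-Gnas libraries. The same 2 libraries held 24.0 and 33.7 FPKM over T lymphocyte markers, against at most 6.83 FPKM in any other library, and 213 and 195 FPKM over meninges markers, against at most 147 FPKM. In hGFAP-Gnas, the lowest Ptger4 value, 0.555 FPKM, belonged to hGFAP-Gnas 1, where the microglia and macrophage markers summed to 92.2 FPKM, against 464 to 784 FPKM in the others. Among those others the orders differed. Library hGFAP-Gnas 2 had the most marker signal, 784 FPKM, with 0.941 FPKM of Ptger4. The most Ptger4, 1.34 FPKM, was in hGFAP-Gnas 3, with a marker sum of 551 FPKM. Of the 9 microglia and macrophage markers, 5 were called higher in Olig1-Gnas and 7 in hGFAP-Gnas, beside 36.2% and 26.1% of all genes tested. None was called lower, and none is at 0 in any group. The part of any of these cells in the Ptger4 difference was not tested.

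Gpr161 (chr1:167225896-167251982), the ciliary receptor that restrains hedgehog signaling, showed the largest fold of the members tested in Olig1-Gnas. Its lowest, median and highest levels were 3.67, 5.64 and 11.1 FPKM in Olig1-Gnas, against 1.63, 1.59 and 2.56 FPKM in Ctrl 1, 2 and 3. All 8 Olig1-Gnas libraries lay above the Ctrl libraries. The mean of 6.02 ± 2.30 FPKM was 3.12 times the Ctrl mean of 1.93 ± 0.547 FPKM, a log2 fold of 1.22 ± 0.27 (adjusted p = 0.00187). In hGFAP-Gnas its lowest, median and highest levels were 1.23, 4.24 and 6.80 FPKM. There 7 of 8 libraries lay above every Ctrl value, hGFAP-Gnas 2 lay below them, and the log2 fold of 0.81 ± 0.32 missed the threshold (adjusted p = 0.0658). Without hGFAP-Gnas 2 the fold was 0.98 ± 0.21 (adjusted p = 0.0137), and without hGFAP-Gnas 1 it was 0.84 ± 0.33 (adjusted p = 0.0453). The difference between knockouts was 0.41 ± 0.24 (adjusted p = 0.291). The Olig1-Gnas call held with each library left out in turn, with folds of 1.10 to 1.37. Within every group, each shallower library held more Gpr161 than each deeper one. The shallower and deeper values were 6.02 to 11.1 and 3.67 to 5.26 FPKM in Olig1-Gnas and 4.37 to 6.80 and 1.23 to 4.10 FPKM in hGFAP-Gnas. In Ctrl they were 2.56 FPKM, and 1.63 and 1.59 FPKM. The reason for this split was not tested.

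Granule progenitor markers were also higher in the knockouts, and their sum over 6 genes was 769 to 1048 FPKM in Olig1-Gnas, 185 to 1010 FPKM in hGFAP-Gnas and 197 to 279 FPKM in Ctrl. Of these 6 markers 5 were called higher in each knockout, beside 36.2% of all genes tested in Olig1-Gnas and 26.1% in hGFAP-Gnas. Atoh1, Nhlh1 and Igfbpl1 have no Ctrl library at 1 FPKM and passed the filter only through the knockouts. Their part in this count supports nothing. The lowest sums in hGFAP-Gnas, 185, 530 and 569 FPKM, belonged to libraries 1, 2 and 7, with 3.26, 1.23 and 4.37 FPKM of Gpr161. Library hGFAP-Gnas 1 lay below every Ctrl library in the marker sum and above every Ctrl library in Gpr161. The Ctrl sum is mostly Zic1, at 191 to 272 FPKM, a gene called in neither knockout. For Atoh1, Barhl1, Nhlh1 and Igfbpl1, the lowest hGFAP-Gnas values were 0.937, 15.1, 3.40 and 5.16 FPKM. The highest Ctrl values were 0.198, 4.71, 0.262 and 0.405 FPKM, so hGFAP-Gnas 1 lay above every Ctrl library in these markers too. Mfap4 and Zic1 overlapped, with lowest hGFAP-Gnas values of 1.51 and 159 FPKM and highest Ctrl values of 2.55 and 272 FPKM. The part of cell makeup was not tested. Gpr161 overlaps Tiprl in the GRCm38.p6 annotation, and the sources used here do not state strandedness, so reads of these genes may be shared. Tiprl had 15.4 ± 3.09 FPKM in Olig1-Gnas, 12.8 ± 1.64 FPKM in hGFAP-Gnas and 10.6 ± 0.420 FPKM in Ctrl.

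Gpr3 (chr4:132765254-132768451) encodes a receptor that raises cAMP without added ligand. The gene had lowest, median and highest levels of 1.83, 5.45 and 6.86 FPKM in Olig1-Gnas and 1.79, 5.33 and 6.96 FPKM in hGFAP-Gnas, against 1.66, 2.42 and 1.83 FPKM in Ctrl 1, 2 and 3. In each knockout 7 of 8 libraries lay above every Ctrl value, and the exceptions were Olig1-Gnas 6 and hGFAP-Gnas 1. The means were 4.93 ± 1.75 FPKM in Olig1-Gnas and 5.13 ± 1.74 FPKM in hGFAP-Gnas, 2.51 and 2.61 times the Ctrl mean of 1.97 ± 0.403 FPKM. The log2 fold was 0.94 ± 0.30 (adjusted p = 0.0167) in Olig1-Gnas and 0.99 ± 0.29 (adjusted p = 0.0246) in hGFAP-Gnas, and -0.05 ± 0.24 between them (adjusted p = 0.915). The Olig1-Gnas call ended without Ctrl 1 or Ctrl 3, and the hGFAP-Gnas call ended without any of the 3 Ctrl libraries and under quantile normalization (adjusted p = 0.0724).

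**Figure D3:**
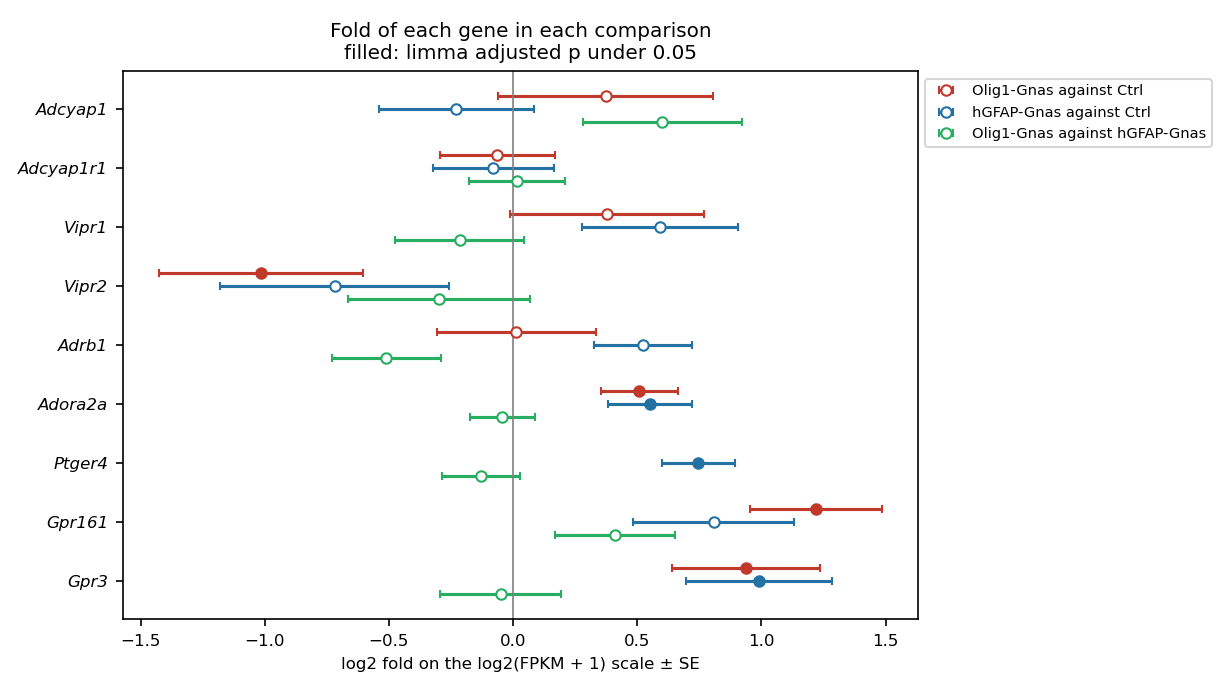
Log2 fold on the log2(FPKM + 1) scale ± SE (x axis) of each gene (rows) in the 3 comparisons, filled where limma's adjusted p was under 0.05. Ptger4 has no point for Olig1-Gnas against Ctrl, where it did not pass the filter, and no point is filled between the knockouts.

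Within depth classes the called folds had the same sign as over all libraries wherever they could be fitted. A class holds 4 libraries of each knockout, with 2 Ctrl libraries among the deeper and 1 among the shallower, so the shallower folds are given as values with no test. For Gpr161 in Olig1-Gnas the log2 fold was 1.06 (adjusted p = 0.00851) among deeper and 1.23 among shallower libraries. For Gpr3 it was 0.77 (adjusted p = 0.199) among deeper and 1.14 among shallower libraries in Olig1-Gnas, and 0.75 (adjusted p = 0.334) and 1.26 in hGFAP-Gnas. For Adora2a it was 0.48 (adjusted p = 0.0995) among deeper and 0.51 among shallower libraries in Olig1-Gnas, and 0.67 (adjusted p = 0.259) and 0.41 in hGFAP-Gnas. Ptger4 passed the filter in hGFAP-Gnas only among the shallower libraries, with 0.87.

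**Figure D4:**
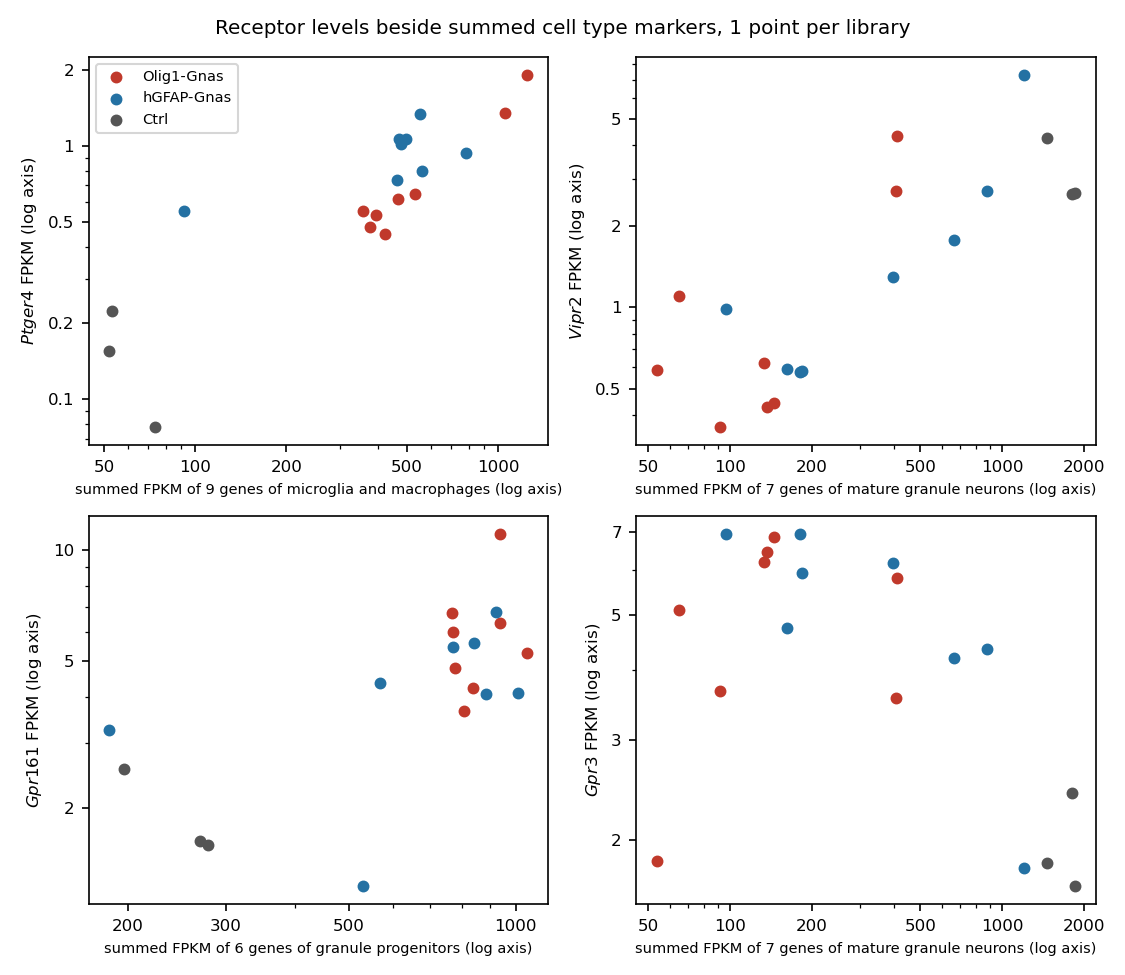
FPKM of Ptger4, Vipr2, Gpr161 and Gpr3 (y axes, log) against the summed FPKM of cell type markers (x axes, log), with a point for each library of Olig1-Gnas, hGFAP-Gnas and Ctrl. Ptger4 is highest in Olig1-Gnas 1 and 2, where microglia and macrophage markers sum to 1246 and 1052 FPKM, and hGFAP-Gnas 1 lies nearest to Ctrl on every x axis.

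The order of levels differed between groups. In Olig1-Gnas, Adcyap1r1 was followed by Gpr161, Gpr3, Adcyap1, Vipr1, Adrb1, Adora2a, Vipr2 and Ptger4. In hGFAP-Gnas it was followed by Gpr3, Vipr1, Gpr161, Adrb1, Adcyap1, Vipr2, Adora2a and Ptger4. In Ctrl it was followed by Vipr2, Vipr1, Adcyap1, Adrb1, Gpr3, Gpr161, Adora2a and Ptger4. Adcyap1r1 did not overlap with the next gene in any group. In the knockouts all other neighbors in the order overlap in their ranges. In Ctrl the neighbors that did not overlap were Adcyap1 over Adrb1, Gpr161 over Adora2a and Adora2a over Ptger4.

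Other ligands and receptors of the secretin family were mostly below the filter. In the gene lists that follow, rose and fell are used of genes with a limma adjusted p under 0.05 against Ctrl. The counts stand beside 36.2% higher and 23.6% lower of all genes tested in Olig1-Gnas and 26.1% higher and 12.8% lower in hGFAP-Gnas. Mc5r, Ada, Sstr2, Sstr1 and Npy1r have no Ctrl library at 1 FPKM and passed the filter only through the knockouts. Their part in the counts of genes that rose and in the list medians supports nothing. Likewise Gpr12, Grm8 and Sstr3 have no Olig1-Gnas library at 1 FPKM. Adra2c and Chrm2 have 1, and Crhr1, Pcsk4, Grm2 and Adra2a have 2. With a filter of 3 libraries, these genes passed it in Olig1-Gnas only through Ctrl. The same holds for Grm8 in hGFAP-Gnas, with 2 libraries at 1 FPKM. Their part in those counts of genes that fell and in the list medians supports nothing. Of 14 other peptide ligand genes, 2 were tested in Olig1-Gnas and 5 in hGFAP-Gnas, and none was called; Pth is at 0 everywhere. Of 12 other class B receptor genes, 4 were tested in Olig1-Gnas and 3 in hGFAP-Gnas. Crhr1, a receptor for corticotropin-releasing hormone, had 3.01 ± 4.66 FPKM in Olig1-Gnas and 5.92 ± 6.62 FPKM in hGFAP-Gnas, against 32.7 ± 2.43 FPKM in Ctrl, and fell in both (log2 fold -3.76 in Olig1-Gnas, adjusted p = 0.000943, and -2.85 in hGFAP-Gnas, adjusted p = 0.0158). In Olig1-Gnas, Crhr1 was tested only because it is higher in Ctrl. Calcrl, a subunit of receptors for adrenomedullin and calcitonin gene-related peptide that is known from endothelium, rose in both (log2 fold 1.04 in Olig1-Gnas, adjusted p = 0.0142, and 1.77 in hGFAP-Gnas, adjusted p = 0.0383). Of 7 endothelium and pericyte markers, 0 rose and 2 fell in Olig1-Gnas, and 0 rose and 0 fell in hGFAP-Gnas. The part of these cells in the Calcrl difference was not tested. Of 25 other class A Gs-coupled receptor genes, 5 were tested in each knockout, with 1 higher and 3 lower in Olig1-Gnas and 1 higher and 1 lower in hGFAP-Gnas. Gpr12, a close relative of Gpr3, moved the other way from it, with log2 folds of -2.14 in Olig1-Gnas (adjusted p = 1.29e-05) and -1.64 in hGFAP-Gnas (adjusted p = 0.0115). In Olig1-Gnas, Gpr12 was tested only because it is higher in Ctrl. The melanocortin receptor gene Mc5r rose by 0.77 in Olig1-Gnas and 1.20 in hGFAP-Gnas, and the adenosine receptor gene Adora2b had a log2 fold of -0.74 in Olig1-Gnas (adjusted p = 0.0291).

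Genes for the processing of PACAP were lower in part. Of 5 tested genes of its maturation and breakdown, 3 fell and 0 rose in Olig1-Gnas, and 2 fell and 1 rose in hGFAP-Gnas. Pcsk2 and Pcsk1, prohormone convertases that cut neuropeptide precursors, had log2 folds of -1.95 and -1.68 in Olig1-Gnas and of -1.21 and -1.30 in hGFAP-Gnas. Pcsk4, known as a convertase of the testis and ovary, had a log2 fold of -0.79 in Olig1-Gnas, where it was tested only because it is higher in Ctrl. Pam, the enzyme that amidates peptides such as PACAP, rose by 0.69 in hGFAP-Gnas.

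Genes that supply or remove adenosine and prostaglandin E2, the ligands of Adora2a and Ptger4, were higher more often than lower. Of 11 tested, 6 rose and 1 fell in Olig1-Gnas, and 5 rose and 1 fell in hGFAP-Gnas, with a median log2 fold of 0.78 in Olig1-Gnas and 0.65 in hGFAP-Gnas, beside 0.22 and 0.19 for all genes tested. Slc29a1, a nucleoside transporter, had 491 ± 84.4 FPKM in Olig1-Gnas and 391 ± 206 FPKM in hGFAP-Gnas, against 20.4 ± 0.979 FPKM in Ctrl (log2 fold 4.50 in Olig1-Gnas, adjusted p = 1.38e-09, and 3.84 in hGFAP-Gnas, adjusted p = 0.00770). Ada, which breaks adenosine down, rose by 1.47 in Olig1-Gnas and 0.94 in hGFAP-Gnas, and Ptges, a prostaglandin E synthase, by 1.42 in Olig1-Gnas and 1.85 in hGFAP-Gnas. Entpd1, an ectonucleotidase, rose by 1.20 in Olig1-Gnas and 0.81 in hGFAP-Gnas, and Ptgs1, a cyclooxygenase, by 0.90 in hGFAP-Gnas.

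Of 11 tested genes that carry Gpr161 to and from the cilium, 5 rose and 3 fell in Olig1-Gnas, and 3 rose and 3 fell in hGFAP-Gnas, and the shares that rose were near those of all genes. Ift122, of the intraflagellar transport complex that with Tulp3 brings Gpr161 into cilia, rose by 1.10 in Olig1-Gnas and 0.79 in hGFAP-Gnas, and its partner Ift140 by 1.12 in Olig1-Gnas. Arrb1 and Adrbk1, a β-arrestin and a receptor kinase that act in receptor removal, fell in both knockouts, with log2 folds of -2.02 and -1.12 in Olig1-Gnas and -1.13 and -0.74 in hGFAP-Gnas, while Arrb2 rose by 0.96 in Olig1-Gnas and 0.99 in hGFAP-Gnas.

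Most tested receptors that couple to Gi and lower cAMP fell. Of 18 tested in Olig1-Gnas 2 rose and 13 fell, against 36.2% and 23.6% of all genes. Of 19 in hGFAP-Gnas 4 rose and 11 fell, against 26.1% and 12.8% of all genes. The median log2 fold was -1.96 in Olig1-Gnas and -1.44 in hGFAP-Gnas, beside 0.22 and 0.19 for all genes tested. Among those that fell, Grm2, Grm8, Adra2a, Adra2c, Chrm2 and Sstr3 in Olig1-Gnas and Grm8 in hGFAP-Gnas passed the filter only through Ctrl. Their part in these counts and medians was set by the filter and supports nothing. Among those that fell, Grm4, a glutamate receptor of granule neuron terminals, had log2 folds of -4.84 in Olig1-Gnas and -3.60 in hGFAP-Gnas, and Gabbr2, a GABA-B receptor subunit, of -4.23 in Olig1-Gnas and -2.81 in hGFAP-Gnas. Markers of mature neurons were lower beside them: 7 Purkinje cell genes summed to 11.0 to 477 FPKM in Olig1-Gnas and 69.7 to 1525 FPKM in hGFAP-Gnas, against 1841 to 3028 FPKM in Ctrl, and their part in the list's difference was not tested. The somatostatin receptor gene Sstr2 and the chemokine receptor gene Cxcr4, both known from developing granule neurons, were among those that rose. Sstr2 had 152 ± 81.3 FPKM in Olig1-Gnas and 79.7 ± 39.4 FPKM in hGFAP-Gnas, against 0.762 ± 0.149 FPKM in Ctrl (log2 fold 6.15 in Olig1-Gnas and 5.12 in hGFAP-Gnas). Cxcr4 rose by 4.65 in Olig1-Gnas and 3.69 in hGFAP-Gnas. None of the genes on these 7 lists was called between the knockouts.

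For each member, the genes with the most similar pattern over the 19 libraries were found by the root mean square difference of z-scored log2(FPKM + 1), which had a median of 1.20 to 1.54 over 14590 genes. The closest were Btbd7 at 0.283, Tbl1x at 0.294 and Trip12 at 0.304 for Gpr161. For Ptger4 they were Cyfip1 at 0.292, Ncf4 at 0.303 and Plek at 0.336, the last pair known from leukocytes. For Gpr3 they were Pla2g6 at 0.337, Rccd1 at 0.345 and B430319G15Rik at 0.346. For Vipr2 they were E530001F21Rik at 0.377, A930012L18Rik at 0.392 and Itpr3 at 0.403. For Adrb1 they were Acss1 at 0.447, Fam189a2 at 0.454 and Kcnk2 at 0.454. The neighbors were farther away for Adcyap1 (Sema3f at 0.485, Kcnh2 at 0.680, Ssx2ip at 0.686), Adora2a (Nupr1 at 0.511, Bcl3 at 0.528, Bid at 0.547) and Vipr1 (LOC100503790 at 0.553, Ap1g2 at 0.60, Xdh at 0.649). Adcyap1r1 had the most distant neighbors, Snord70 at 0.644, Mir194-1 at 0.662 and Foxs1 at 0.799. Within the set the most alike were Adora2a and Ptger4 at 0.803. The libraries share group, depth class and cell makeup, so these values describe likeness only.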

How the data were processed

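Bulk RNA of cerebellum was sequenced in 19 libraries. Per the labels' protocols, RNA was extracted with Trizol, purified with RNeasy and made into Illumina TruSeq libraries from total RNA. The submitters' processing notes name TopHat, Cufflinks and mm9, without versions or settings. The authors deposited FPKM per gene in 2 tables, which list Ctrl 2 and Ctrl 3 alike and Ctrl 1 with differences in 5106 genes; each comparison with Ctrl used its own table. The knockouts were compared across the tables, whose Ctrl 2 and Ctrl 3 values are identical. Read counts and strandedness are not given in the sources used here. Of 22193 genes, 2605 are at 0 in every library and 461 are at 0 in some and at 1 FPKM or more in others.

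FPKM was taken to log2(FPKM + 1), and genes that reached 1 FPKM in 3 or more libraries of a comparison were fitted with limma 3.58.1 (R 4.3.3, trend and robust moderation), with Benjamini-Hochberg adjustment over all genes tested. The offset understates the change of low genes. Group means of single genes and of the Adcyap1r1 share were compared by 2-sided exact permutation tests (numpy 2.4.6, Python 3.11.15). Their smallest p is 0.00606 for 8 against 3 libraries and 0.000155 for 8 against 8. Relative depth was estimated from steps among values under 0.5 FPKM and divided at 0.6 of Ctrl 2. The scripts were tested on simulated data.

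All 9 members are given. Of 7 pathway lists with 112 genes, up to 4 called genes with the largest fold per comparison are named, except 1 that is not reported here, and 3 genes per member by likeness; 13 marker lists describe cell types. The members and lists were chosen with earlier results of these data known. Alternatives were another pseudocount of 0.1, no filter, quantile and upper quartile scaling, limma without trend, a fit of all groups, the replicate number as a block, depth class and Y-linked signal as terms, each depth class alone, zeros as missing values and leaving out each library.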

Additional observations from a re-analysis of the deposited data

Results flagged for a closer look

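In 6 of 20 groups of 8 values, the highest or lowest library stood farther from the next than Dixon's 95% critical value allows. A rate of 1 in 20 is meant for independent, normally distributed groups. These are untransformed FPKM of the same libraries, and the share is calculated from Adcyap1r1, Vipr1 and Vipr2, so the flags cannot be set against that rate. Library hGFAP-Gnas 1 accounts for 4 of them. It held 6.49 FPKM of Adcyap1, with 3.19 FPKM in the next hGFAP-Gnas library, 9.29 FPKM of Vipr1, with 5.48 FPKM in the next, and 7.30 FPKM of Vipr2, with 2.71 FPKM in the next. Its Adcyap1r1 share of PACAP receptor FPKM was 68.6%, the lowest in hGFAP-Gnas, with 82.6% in the next. Olig1-Gnas 5 held 69.9 FPKM of Adcyap1r1, with 44.1 FPKM in the next Olig1-Gnas library. Olig1-Gnas 3 held 11.1 FPKM of Gpr161, with 6.74 FPKM in the next.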

How the results depend on the processing

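Over 666 alternatives to 26 member folds, 569 kept direction and side of the threshold, 43 lost a call, 11 gained one and 43 changed sign, each of the last in an uncalled member. For Olig1-Gnas against Ctrl, the genes called numbered 5141 in shallower libraries, and the members called 1 in deeper and 0 in shallower libraries, where 3 had an unadjusted limma p under 0.05. For hGFAP-Gnas against Ctrl, the genes called numbered 6 in deeper and 2277 in shallower libraries, and the members called 0 under quantile normalization and 0 in deeper libraries, with 2 at an unadjusted p under 0.05 in each. Between the knockouts the genes called numbered 170 in a fit of all groups, 166 with depth class as a term, 3 in deeper libraries and 3 with a term for Y-linked signal. The Adcyap1r1 share differed from Ctrl by 1.97 percentage points in Olig1-Gnas and 0.695 in hGFAP-Gnas in shallower libraries. The shallower libraries include 1 Ctrl library, assumed to vary like the others, so their counts rest on no spread within Ctrl. The cause of these differences was not tested, and a depth class also holds fewer libraries.

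Same-numbered libraries did not pair, with correlations of deviations of -0.178, -0.137 and 0.0511 (Olig1-Gnas and Ctrl), 0.0269, 0.124 and -0.0975 (hGFAP-Gnas and Ctrl) and -0.172 to 0.254 (both knockouts), and not every library correlated best with its own number. With the replicate block, 0 genes and 0 members were called in hGFAP-Gnas against Ctrl, with 2654 genes and 1 member, Ptger4, at an unadjusted limma p under 0.05, and 25 genes between the knockouts. The block turned Adcyap1 to -0.0221 and Adrb1 to -0.0659 in Olig1-Gnas, and Adcyap1 to 0.15 and Adcyap1r1 to 0.0722 in hGFAP-Gnas. It gave share differences of -4.29, -4.15 and 2.11.

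Log2 folds changed sign in Olig1-Gnas for Adcyap1r1 (0.23, deeper libraries), Vipr1 (-0.14, shallower) and Adrb1 (-0.0541 with a pseudocount of 0.1, -0.0941 with quantile normalization, -0.11 with upper quartile scaling, -0.29 in shallower libraries). In hGFAP-Gnas they did so for Adcyap1 (0.0405, deeper), Adcyap1r1 (0.24, deeper, and 0.0678 with the Y term) and Vipr1 (-0.0551, shallower). Between the knockouts they did so for Adcyap1r1 (-0.0463 with quantile normalization, -0.0241 with upper quartile scaling, -0.0111 in deeper libraries, -0.0607 with the Y term), Vipr2 (0.0249 with the Y term), Adora2a (0.17 with quantile normalization, 0.10 in shallower libraries), Ptger4 (0.0694 and 0.0527 in the same pair) and Gpr3 (0.0949 with quantile normalization, 0.0167 in deeper libraries, 0.0283 with the Y term).

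With each library left out in turn, genes called ranged over 6971 to 9546 in Olig1-Gnas, 818 (without Ctrl 2) to 8164 (without hGFAP-Gnas 1) in hGFAP-Gnas, with 1049 without Ctrl 1 and 1924 without Ctrl 3, and 11 (without hGFAP-Gnas 8) to 104 (without hGFAP-Gnas 3) between the knockouts. Members called ranged over 1 to 4, 1 to 6 and 0 to 0. The share difference ranged over -2.03 to 0.931, -4.14 to -0.204 and -0.132 to 3.58. Folds that changed sign ranged over -0.19 to 0.0679 for Adcyap1r1 and -0.10 to 0.16 for Adrb1 in Olig1-Gnas, -0.20 to 0.0527 for Adcyap1r1 in hGFAP-Gnas, and -0.11 to 0.13 for Adcyap1r1, -0.11 to 0.0117 for Adora2a and -0.20 to 0.0918 for Gpr3 between the knockouts. With 3 Ctrl libraries and unknown read totals, differences in genes near 1 FPKM are the least certain.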
